A study of Homo sapiens with 12 samples.

Results

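The nuclear-encoded genes of the mitochondrial respiratory chain were followed in U2OS cells, a human osteosarcoma line, after expression of E2F1. The genes were taken by symbol (NDUFA, NDUFB, NDUFC, NDUFS, and NDUFV genes, SDHA to SDHD, UQCR genes, COX4 to COX8 genes, and ATP5 genes, without pseudogenes and antisense genes), which gave 88 of the 25369 genes counted. They comprised 36 genes of complex I, 4 of complex II, 8 of complex III, 17 of complex IV, and 15 of complex V, together with 8 related symbols (paralogs, readthrough genes, and genes named for a subunit). Of the 88 genes, 81 passed the filter on low counts and were tested among 16625 genes. All 4 cell lines were stable Tet-On U2OS lines selected with G418 and hygromycin B, and all were given doxycycline at 1 μg/ml for 24 hours. The pTRE line carried the empty vector, WT carried HA-tagged wild-type E2F-1, R109K carried the HA-tagged E2F-1 of that name, in which 1 arginine is changed to lysine, and KK carried HA-tagged E2F-1 with lysine in place of arginines 111 and 113. Each line was measured in 3 biological replicates, and since each construct was studied in 1 stable line, the construct and the history of its line cannot be told apart.

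The respiratory chain passes electrons from reduced nicotinamide and flavin cofactors to oxygen through complexes I to IV in the inner mitochondrial membrane. Complexes I, III, and IV move protons across the membrane as they do so, and complex V, the ATP synthase, uses the returning protons to make ATP. Subunits of complexes I, III, IV, and V come from both the nuclear and the mitochondrial genome, while those of complex II are all nuclear. The subunits encoded by mitochondrial DNA were not analysed here.

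E2F1 itself was measured first. Its expression was 91.2 ± 9.43 CPM (reads scaled to the same total of reads on genes in each library, mean ± SD, n = 3) in pTRE, 1811 ± 445 in WT, 1158 ± 196 in R109K, and 1316 ± 187 in KK, where reads of the construct and of the resident gene are counted together. Libraries held from 11500537 to 31040903 reads on genes. WT replicate 2 was the smallest and stood apart, with 58.7% of its reads outside genes against 23.6 to 29.6% in the other 11 libraries. The main calls and medians in WT are given with and without this library. VIM, SPARC, and COL1A1, markers of mesenchymal and bone-forming cells, reached at least 457 CPM in every library, although COL1A2 stayed below 0.588 CPM. Of the same markers, RUNX2 was between 7.78 and 18.8 CPM and ALPL between 0.321 and 2.61 CPM. PTPRC, CD3E, and PECAM1, markers of blood and endothelial cells, stayed below 0.711 CPM, while the keratins KRT8 and KRT18 reached at least 168 CPM and KRT19 stayed below 0.107 CPM. The epithelial markers EPCAM and CDH1 were between 9.88 and 14.7 CPM and between 0.509 and 1.44 CPM.

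The promoter sequences show what could be read from the DNA beside these genes. Of the 88 genes, 68 had an entry in the RefSeq promoter table (GRCh38.p14), with 81 windows from 250 bases before to 50 bases after a transcription start. Motifs of 4 kinds were searched on both strands, those of E2F (TTTCCCGC, TTTCGCGC, TTTGCCGC, or TTTGGCGC), NRF1 (GCGCATGCGC or GCGCACGCGC), ETS factors (CCGGAAG), and YY1 (AAGATGGC). The E2F motif was present in 8 of the 81 windows (9.88%), against 3.31% of 35116 windows in the whole table. The NRF1 motif was present in 12.3% against 2.77%, the ETS motif in 25.9% against 10.3%, and the YY1 motif in 16% against 2.89%. These shares describe letters in a window of fixed length and were not adjusted for base composition. No matches of different motifs overlapped in the respiratory chain windows, while 16 windows of the whole table held such an overlap. The 8 E2F matches lay in windows of ATP5L, COX7B, COX7C, COX8A, NDUFA13, NDUFC1 (the same site in 2 overlapping windows), and NDUFS6. None of these genes was among the genes called below, and the 10 windows of the called genes with an entry (6 genes) held 0 E2F motifs. So few windows cannot tell 0 from the 9.88% above, and the called genes ATP5B and NDUFB5 had no entry. The study looked for E2F motifs over a longer promoter region than these windows.

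The 250 bases before the start are shown for 4 genes, 5′ to 3′ on the gene's strand, with motif matches in capitals. UQCRC2 is shown because it was lower in the WT and KK lines, ATP5A1 because it was lower in WT (its window with an ETS match), ATP5O because it was lower in WT and R109K (NRF1 match, with a YY1 match after the start, outside the part shown), and COX8A because its window holds an E2F match followed by an ETS match.
UQCRC2 (chr16:21953111-21953360, plus strand): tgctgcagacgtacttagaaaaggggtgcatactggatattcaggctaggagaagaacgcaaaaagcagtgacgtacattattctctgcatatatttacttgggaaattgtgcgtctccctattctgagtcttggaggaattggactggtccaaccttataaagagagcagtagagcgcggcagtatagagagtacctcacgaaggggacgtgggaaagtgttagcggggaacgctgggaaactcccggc
ATP5A1 (chr18:46098297-46098546, minus strand): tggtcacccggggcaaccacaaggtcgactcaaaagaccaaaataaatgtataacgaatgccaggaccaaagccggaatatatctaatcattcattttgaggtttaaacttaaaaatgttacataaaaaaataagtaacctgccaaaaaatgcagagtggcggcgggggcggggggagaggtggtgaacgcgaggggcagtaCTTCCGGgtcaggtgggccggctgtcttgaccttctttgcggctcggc
ATP5O (chr21:33915805-33916054, minus strand): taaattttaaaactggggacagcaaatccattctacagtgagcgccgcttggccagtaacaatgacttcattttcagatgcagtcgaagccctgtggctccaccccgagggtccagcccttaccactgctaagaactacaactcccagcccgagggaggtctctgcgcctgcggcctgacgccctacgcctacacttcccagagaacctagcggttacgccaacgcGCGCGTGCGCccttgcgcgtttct
COX8A (chr11:63974370-63974619, plus strand): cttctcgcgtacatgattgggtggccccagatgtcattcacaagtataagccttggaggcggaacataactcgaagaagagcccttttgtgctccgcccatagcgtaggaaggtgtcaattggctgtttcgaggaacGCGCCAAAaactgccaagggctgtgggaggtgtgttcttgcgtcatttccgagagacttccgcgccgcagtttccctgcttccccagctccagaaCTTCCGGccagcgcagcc

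In the pTRE line, the level of a gene was compared per kilobase of its transcript, as CPM per kilobase. The median was 66.8 for complex I (36 genes), 94.1 for complex II (4 genes), 109.5 for complex III (8 genes), 182 for the 14 tested genes of complex IV, and 146 for complex V (15 genes). ATP5F1, a subunit of the stalk that holds the ATP synthase in place, had the highest level at 375 CPM per kilobase. NDUFB9 at 306, COX8A at 265, UQCRH at 253, and SDHC at 137 were the highest genes of complexes I, IV, III, and II. NDUFV3 was lowest in complex I at 5.76 CPM per kilobase. These levels rest on the median length of each gene's transcripts, such as 460 bases for SDHC, 2148 for SDHA, and 4676 for NDUFV3. With another choice of transcript the ranks could differ.

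The tissue-restricted forms of complex IV subunits were at or near 0 in all lines. COX7B2 had 0 reads in all 12 libraries, which allows up to 0.0966 to 0.261 CPM per library (3 counts, counting error only). COX4I2 and COX8C had at most 2 and 4 reads in any library, and NDUFA4L2 had at most 6. COX6A2, COX6B2, and COX7A1, the other forms known from muscle or testis, passed the filter, with 0.172 CPM per kilobase for COX6B2 in pTRE. Their widely expressed counterparts were far higher, for example COX6A1 at 106, 102, and 123 CPM in pTRE against 0.0826, 0.076, and 0.367 CPM for COX6A2. The skeletal and heart muscle markers MYH7 and CKM stayed below 0.482 CPM and ACTA1 and MYOD1 below 0.961 CPM, while MYH2 was between 3.18 and 18.6 CPM.

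Several symbols could not be measured cleanly. ATP5E, the epsilon subunit of the ATP synthase, was counted at only 0.330, 0.418, and 0.294 CPM in pTRE, and NDUFC2 at 4.63, 4.90, and 4.44 CPM. NDUFC2 shares 18.6% of its exonic bases, on the same strand, with the readthrough gene NDUFC2-KCTD14, and ATP5J2 shares 30.1% with ATP5J2-PTCD1, so their counts are uncertain. On the opposite strand, ATP5J shares 46.7% of its exonic bases with GABPA, ATP5S shares 45.1% with CDKL1, and NDUFB2 shares 38.9% with BRAF. Whether the counting used the strand is not given in the sources used here. UQCRH and the near-identical UQCRHL may also divide reads between them.

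The respiratory chain genes moved up and down together from library to library. Relative to the mean of the pTRE libraries, the median of the 81 genes was -0.20, -0.81, and -0.18 on the log2 scale in WT replicates 1 to 3. It was -0.20, 0.23, and -0.09 in R109K and -0.23, 0.29, and -0.21 in KK, against -0.01, -0.04, and 0.04 in pTRE. Thus 1 library of each E2F1 line stood apart from its other 2 replicates, downward in WT and upward in R109K and KK. In WT replicate 2, 76 of the 81 genes (93.8%) were below all pTRE libraries, against 41.2% of all tested genes. In R109K replicate 2 and KK replicate 2, 56 and 57 genes (69.1% and 70.4%) were above all of them, against 37.9% and 38.6%. The share of reads on genes that fell on the 88 genes was 0.728 ± 0.014% in pTRE, 0.562 ± 0.099% in WT, 0.689 ± 0.094% in R109K, and 0.677 ± 0.109% in KK (mean ± SD, n = 3). In such bulk samples, fewer cells that express a gene and less RNA per cell cannot be told apart.

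**Figure D1:**
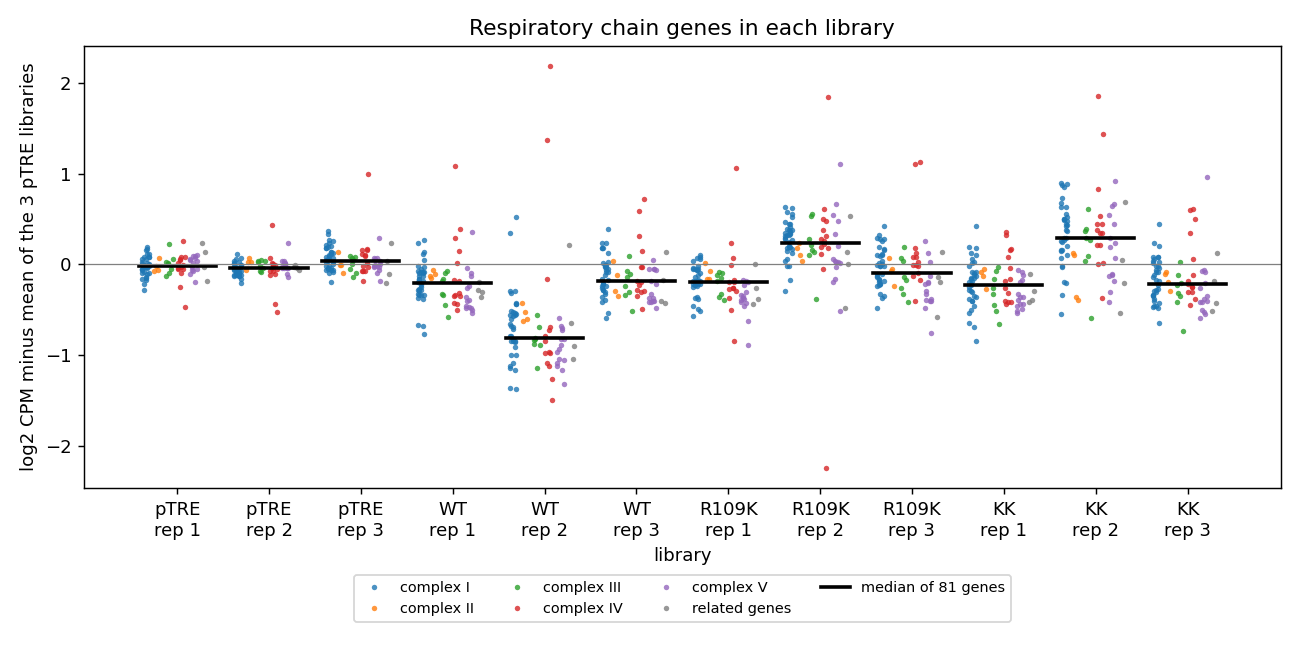
Each point is 1 of 81 respiratory chain genes in 1 library, as log2 CPM minus the mean of the 3 pTRE libraries (vertical axis), coloured by complex, and black bars are medians. The median falls to -0.81 in WT replicate 2 and rises to 0.23 and 0.29 in replicate 2 of R109K and KK, while the other 6 libraries of the E2F1 lines lie between -0.23 and -0.09.

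Other genes moved with them. The 81 cytosolic ribosomal protein genes had medians of -0.33, -1.02, and -0.19 in WT, -0.33, 0.17, and -0.10 in R109K, and -0.41, 0.23, and -0.31 in KK. The 1564 other tested genes with transcripts under 1000 bases moved less, to -0.38 in WT replicate 2, 0.14 in R109K replicate 2, and 0.17 in KK replicate 2. The 12837 other genes of 1000 bases or more stayed between -0.03 and 0.03 in all libraries. Respiratory chain genes thus rose and fell in the same libraries as the ribosomal protein genes and the group under 1000 bases. They include longer transcripts, such as 1415 bases for UQCRC2 and 1945 for ATP5A1, and were not split by length. The part of transcript length, library preparation, or RNA quality in their values was not tested.

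**Figure D2:**
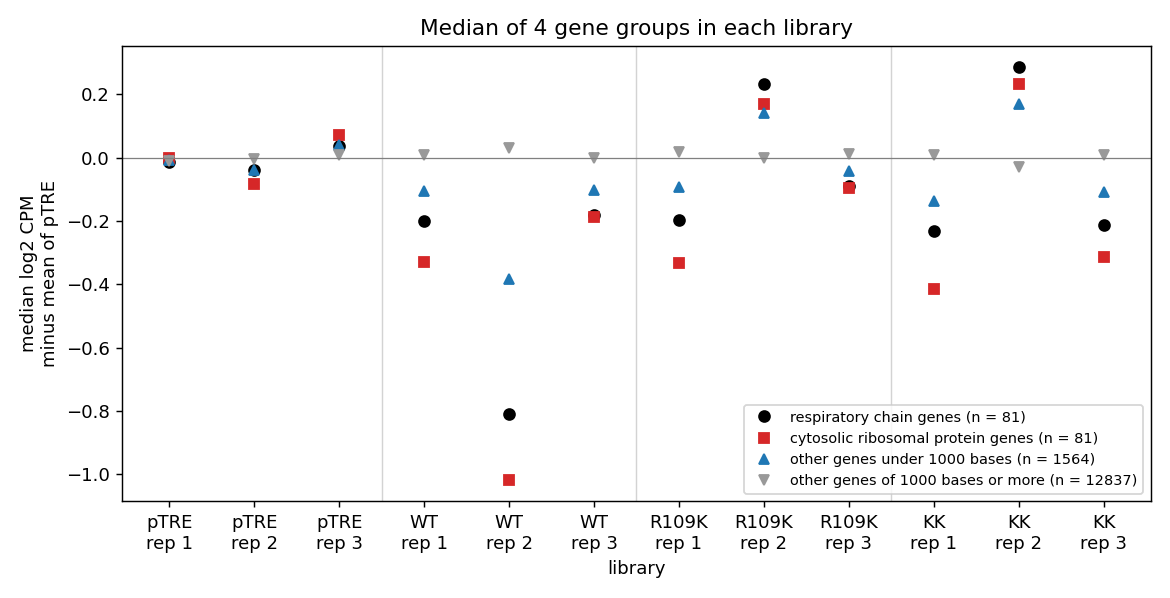
Median log2 CPM minus the mean of pTRE (vertical axis) is shown for 4 groups of genes in each of the 12 libraries (horizontal axis). Respiratory chain genes, cytosolic ribosomal protein genes, and other genes under 1000 bases are lowest in WT replicate 2 (-0.81, -1.02, and -0.38) and highest in replicate 2 of KK, while genes of 1000 bases or more stay near 0.

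Wild-type E2F1 was compared with the empty vector to ask which respiratory chain genes differed after its expression. In the edgeR fit, 8 of the 81 genes were lower in WT at an adjusted p below 0.01 (9.88%) and 0 were higher, against 11.4% of all 16625 genes called lower, 14.8% called higher, and 26.2% called in all. At an unadjusted p below 0.05, 35 genes were lower and 1 was higher, against 23.6% and 25.5% of all genes, and DESeq2 called 12 genes lower and 0 higher. The share of all genes that DESeq2 called is not given here or below, so its counts have no background beside them. None of the 81 passed both an adjusted p below 0.01 and a 2-fold change, against 11.8% of all genes. The median log2 fold change of the 81 genes was -0.34, with 73 of 81 below 0, while the median of all tested genes was 0.00. By complex, the median was -0.26 for I, -0.28 for II, -0.40 for III, -0.36 for IV, and -0.51 for V. All 3 WT replicates were below all 3 pTRE replicates for 46 of the 81 genes (56.8%), against 26.3% of all genes, and above them for 2 genes (COX6B2 and NDUFC2), against 25.2%.

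Without WT replicate 2, 4 of the 81 genes were lower (ATP5A1, ATP5B, NDUFB5, and UQCRC2), against 24.2% of all genes called, and the median was -0.22 with 69 of 81 below 0. By complex, the median was then -0.15 for I, -0.15 for II, -0.23 for III, -0.24 for IV, and -0.36 for V. In this fit 17 of the 81 genes had an unadjusted p below 0.05 in either direction. The share of all genes at that threshold is not given, but 24.2% of them passed the stricter adjusted p below 0.01. That count therefore does not set the list apart. By its median, the shift of the list was smaller without this library and in the same direction. With any 1 of the pTRE replicates left out, 2 genes were called (NDUFB5 and UQCRC2). The share of all genes called in these fits is not given, so whether the drop is particular to these genes cannot be told.

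Complex V held 5 of the 8 genes. ATP5A1 and ATP5B, the alpha and beta subunits that form the catalytic head of the ATP synthase, are among the most abundant of these transcripts. ATP5A1 was measured at 370, 344, and 348 CPM in pTRE and at 253, 162, and 266 CPM in WT. ATP5B was measured at 527, 554, and 534 CPM in pTRE and at 405, 281, and 404 CPM in WT. For both genes every WT replicate was below every pTRE replicate, and replicate 2 was the lowest. ATP5A1 fell by 0.64 on the log2 scale (SE 0.16, adjusted p = 0.00466) and ATP5B fell by 0.57 (SE 0.14, adjusted p = 0.00439).

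ATP5C1, the gamma subunit that turns within the head, fell by 0.51 (SE 0.13, adjusted p = 0.00642). ATP5G2, which codes for subunit c of the membrane ring, fell by 0.57 (SE 0.15, adjusted p = 0.00729). ATP5O, a subunit that links the head to the stalk, was at 192, 182, and 188 CPM in pTRE and 129, 90.1, and 134 CPM in WT, and fell by 0.67 (SE 0.17, adjusted p = 0.00496). The calls of ATP5C1, ATP5G2, and ATP5O were lost without WT replicate 2, where their adjusted p was 0.0202, 0.0238, and 0.0151. The other genes for subunit c, ATP5G3 (log2 fold change -0.64, adjusted p = 0.0108) and ATP5G1 (-0.49, adjusted p = 0.0774), did not pass the threshold, although neither overlapped with pTRE.

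In complex III, UQCRC2, a core subunit, was at 161, 159, and 145 CPM in pTRE and at 103, 83.4, and 108 CPM in WT. The groups did not overlap, and the gene fell by 0.66 (SE 0.11, adjusted p = 3.25e-04), which stayed below the threshold without WT replicate 2 (fall of 0.55, adjusted p = 7.20e-04). Its partner UQCRC1 was at 197, 198, and 216 CPM in pTRE and at 193, 126, and 189 CPM in WT, with a log2 fold change of -0.27 (adjusted p = 0.208). UQCRFS1, the iron-sulfur subunit, had a log2 fold change of -0.43 (adjusted p = 0.0481). In all, 7 of the 8 genes of complex III did not overlap with pTRE and were lower, against 26.3% of all genes. Without WT replicate 2, 1 of the 8 was called lower, and their median moved from -0.40 to -0.23.

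In complex I, NDUFB5, an accessory subunit of the membrane arm, was the only one of 36 genes called. It was at 64.5, 56.4, and 57.8 CPM in pTRE and at 37, 26.4, and 39.5 CPM in WT. The groups were well apart, and it fell by 0.79 (SE 0.16, adjusted p = 0.00108). The core subunits NDUFS1 (-0.24, adjusted p = 0.086) and NDUFV1 (0.03, adjusted p = 0.911) did not pass.

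None of the 4 genes of complex II was called in WT. SDHA, the flavoprotein subunit, had a log2 fold change of -0.16 (adjusted p = 0.338), SDHB, the iron-sulfur subunit, -0.34 (0.0589), and the membrane anchors SDHC and SDHD -0.21 (0.207) and -0.34 (0.0462). None of the 14 tested genes of complex IV was called either. COX5B was at 133, 129, and 146 CPM in pTRE and at 95.8, 62.5, and 110 CPM in WT (log2 fold change -0.60, adjusted p = 0.0364), and COX4I1 had a log2 fold change of -0.37 (adjusted p = 0.138). COX5A had a log2 fold change of 0.17 (adjusted p = 0.402), and the low-count genes COX6A2, COX6B2, and COX7A1 were also above 0, while the other 10 tested genes were below 0. Among the related genes, COX7A2L, which joins complexes III and IV into supercomplexes, fell by 0.58 (SE 0.16, adjusted p = 0.00808), a call lost without WT replicate 2 (adjusted p = 0.0189).

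**Figure D3:**
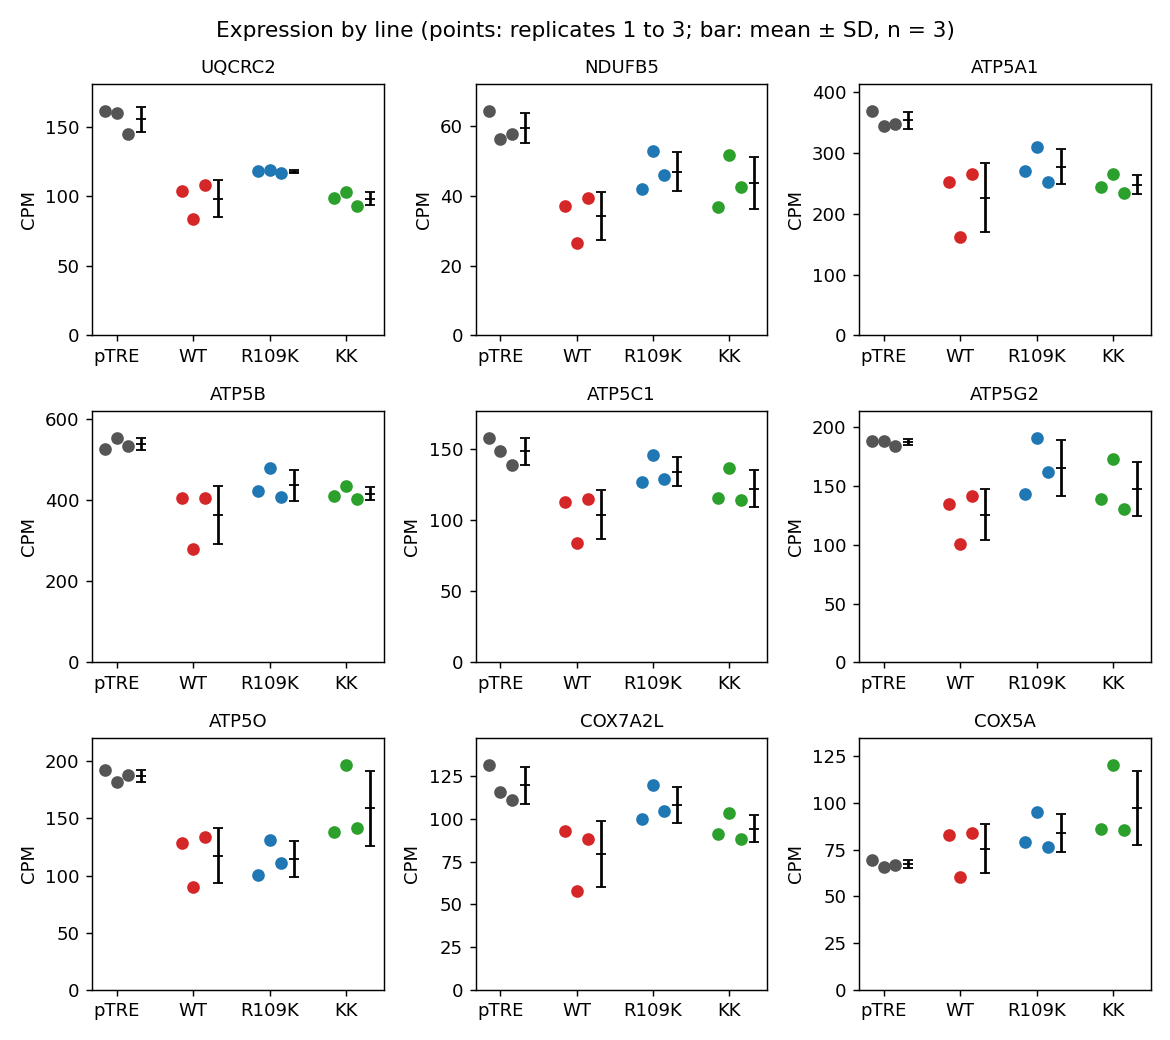
CPM (vertical axes, from 0) of the 8 genes called in WT and of COX5A, in the 4 lines, with points for replicates 1 to 3 and bars for mean ± SD. For the 8 called genes, the 3 WT replicates lie below the 3 pTRE replicates, and UQCRC2 lies between 83.4 and 119 CPM in the 9 libraries with E2F1 constructs against 145 to 161 CPM in pTRE.

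**Figure D4:**
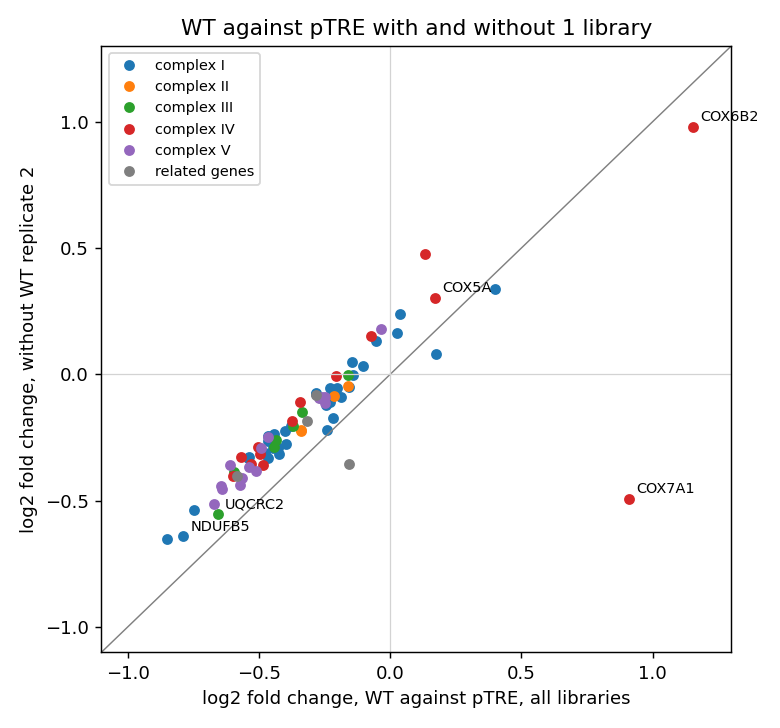
The log2 fold change of each of the 81 genes in WT against pTRE is shown with all libraries (horizontal axis) and without WT replicate 2 (vertical axis), and the line marks equal values. Most genes lie above the line and below 0, as the median moves from -0.34 to -0.22, and COX7A1, a gene of low counts, turns from 0.91 to -0.49.

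For R109K against pTRE, 1 of the 81 genes was lower (ATP5O) and 0 were higher at an adjusted p below 0.01, against 7.23% of all genes lower, 10% higher, and 17.3% in all. At an unadjusted p below 0.05, 7 genes were lower and 2 were higher, against 18.5% and 20.1% of all genes, and DESeq2 called 2 genes lower (ATP5O and UQCRC2) and 0 higher. None passed both an adjusted p below 0.01 and a 2-fold change, against 7.19% of all genes. The median log2 fold change was -0.00, with 41 of 81 genes below 0. ATP5O was at 101, 132, and 111 CPM in R109K, below the 182 to 192 CPM of pTRE in every replicate, and fell by 0.71 (SE 0.17, adjusted p = 0.00480). The call was lost without any 1 of the pTRE replicates and without R109K replicate 1 or 3 (adjusted p from 0.0149 to 0.0342), while the log2 fold change stayed between -0.82 and -0.63. UQCRC2 was at 118, 119, and 116 CPM and also did not overlap with pTRE, with a log2 fold change of -0.40 (adjusted p = 0.0152). In all, 7 genes lay below and 6 above all pTRE replicates, against 22.9% and 24.3% of all genes. With WT replicate 2 left out of the fit, which changes the estimated spread, 3 genes were called lower (ATP5O, ATP5S, and UQCRC2), against 21.4% of all genes called.

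For KK against pTRE, 1 of the 81 genes was lower (UQCRC2) and 0 were higher, against 10.7% of all genes lower, 13.8% higher, and 24.4% in all. At an unadjusted p below 0.05, 13 genes were lower and 4 were higher, against 22.2% and 23.4% of all genes, and DESeq2 called 3 genes lower (ATP5A1, NDUFS1, and UQCRC2) and COX5A higher. None passed both an adjusted p below 0.01 and a 2-fold change, against 10.9% of all genes. The median log2 fold change was -0.03, with 45 of 81 genes below 0. UQCRC2 was at 98.4, 103, and 93.2 CPM in KK, below all pTRE replicates, and fell by 0.66 (SE 0.11, adjusted p = 3.11e-04). COX5A, a nuclear-encoded subunit of complex IV, was at 69.7, 65.7, and 66.8 CPM in pTRE and at 86.0, 120, and 85.6 CPM in KK. Its groups did not overlap, but its log2 fold change of 0.53 (SE 0.16) missed the threshold (adjusted p = 0.0146). In all, 14 genes lay below and 4 above all pTRE replicates, against 24.5% and 24.9% of all genes. With WT replicate 2 left out of the fit, 4 genes were called lower (ATP5A1, ATP5B, ATP5S, and UQCRC2) and COX5A was called higher (0.53, adjusted p = 0.00464), against 29.3% of all genes called.

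Replicate 2 of each E2F1 line stood apart from the others, so the fit was also made without replicate 2 of all 4 lines, an alternative added after seeing the data. Then 12 of the 81 genes were lower in WT, 8 in R109K, and 20 in KK, and 0 were higher in each, against 26.6%, 19.5%, and 28.7% of all genes called. The medians became -0.22, -0.15, and -0.26. Without replicate 1 of all lines 0 genes were called in each comparison with pTRE, and without replicate 3 only UQCRC2 in WT, where 4.98 to 12.6% of all genes were called. The calls thus depended on which replicates entered the fit.

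The 3 comparisons share the pTRE libraries, so their values are given side by side. The log2 fold changes in WT, R109K, and KK were -0.66, -0.40, and -0.66 for UQCRC2, -0.67, -0.71, and -0.24 for ATP5O, -0.79, -0.34, and -0.45 for NDUFB5, and -0.64, -0.35, and -0.51 for ATP5A1.

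The E2F1 lines were also compared directly. By edgeR, 0 of the 81 genes differed at an adjusted p below 0.01 in R109K against WT, KK against WT, or R109K against KK, where 0.71%, 0.012%, and 0.132% of all genes were called. At an unadjusted p below 0.05, 33, 18, and 2 of the 81 genes differed, against 22.3%, 8.51%, and 12.4% of all genes, and DESeq2 also called 0 in each comparison. In R109K against WT, 31 of the 33 were higher in R109K, against 9.46% of all genes, and in KK against WT, 17 of the 18 were higher in KK, against 3.76%. In R109K against KK, 1 was higher in R109K, against 5.01%. The median log2 fold change was 0.38 for R109K against WT and 0.34 for KK against WT, and became 0.20 and 0.19 without WT replicate 2. Then 2 and 1 genes had an unadjusted p below 0.05, and the share of all genes at that threshold is not given. Without replicate 2 of all 4 lines the medians were 0.057 and -0.036, so that of KK against WT changed its sign. For R109K against KK the median was 0.05.

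For single genes in these direct comparisons, NDUFB3 was at 28.6, 20.3, and 28.9 CPM in WT and at 31.0, 46.0, and 40.2 CPM in R109K, which did not overlap (log2 fold change 0.58, adjusted p = 0.0654). ATP5O was lower in R109K than in KK in every replicate, with a log2 fold change of -0.47 (SE 0.17, adjusted p = 0.208). UQCRC2 was higher in R109K than in KK in every replicate (0.26, SE 0.11, adjusted p = 0.346). All 3 R109K replicates were above the WT replicates for 25 genes and below for 1, against 13.1% and 14% of all genes. All 3 KK replicates were above the WT replicates for 7 genes and below for 1, against 4.81% and 5.16%. All 3 R109K replicates were above those of KK for 3 genes and below for 1, against 9.56% and 11.4%.

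Because the genes moved together within a library, each gene was also expressed relative to the median of the 81 genes in the same library. On this scale ATP5O was -0.69, -0.74, and -0.66 in the 3 R109K libraries, a mean of -0.70 ± 0.04 (SD, n = 3), against -0.30 ± 0.05 in WT and -0.20 ± 0.01 in KK. All 9 libraries of the E2F1 lines were below the pTRE libraries for this gene, and those of R109K were the lowest. COX5A was 0.55 ± 0.09 in WT, 0.33 ± 0.09 in R109K, and 0.56 ± 0.02 in KK, and all 9 libraries were above those of pTRE. NDUFB5 was -0.42 ± 0.06 in WT, -0.33 ± 0.07 in R109K, and -0.41 ± 0.12 in KK. UQCRC2 varied more, at -0.27 ± 0.16 in WT, -0.38 ± 0.22 in R109K, and -0.61 ± 0.24 in KK, and its WT replicates overlapped with pTRE. In WT, 15 of the 81 genes were below all pTRE libraries on this scale and 13 were above. The scale sets the median of the 81 genes to 0 in each library, so genes on both sides follow from it. No share of all genes is given on this scale. Of the 15 genes of complex V, ATP5A1, ATP5B, ATP5F1, ATP5G1, ATP5G2, ATP5G3, and ATP5O were below all pTRE libraries, while ATP5D, ATP5E, ATP5J, ATP5J2, and ATP5L had means above 0 (0.10, 0.22, 0.13, 0.11, and 0.11). ATP5E is a gene of low counts and varied widely, at 0.56, -0.01, and 0.12 in the 3 WT libraries.

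**Figure D5:**
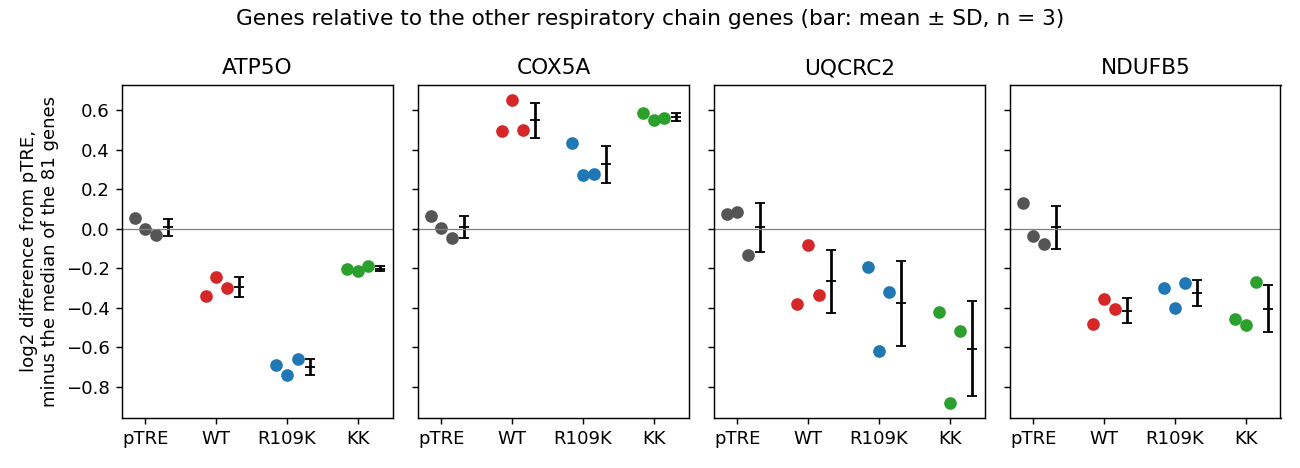
The log2 difference from the pTRE mean, minus the median of the 81 genes in the same library (vertical axes), is shown for ATP5O, COX5A, UQCRC2, and NDUFB5, with points for replicates 1 to 3 and bars for mean ± SD. ATP5O is lowest in R109K (-0.70 ± 0.04), and COX5A is above pTRE in every E2F1 library.

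When libraries were scaled by the respiratory chain genes alone in the edgeR model, an alternative added after seeing the data, the median of all genes moved to 0.41 in WT, 0.04 in R109K, and 0.07 in KK. On this scale COX5A was the only gene called in WT (0.54, adjusted p = 0.00599) and in KK (0.58, adjusted p = 0.00585), and ATP5O was the only one called in R109K (-0.69, adjusted p = 0.00201), against 16.2%, 10%, and 5.25% of all genes. Of the 8 genes called in WT on the usual scale, none was called here, and all kept a negative sign. They had been picked for falls beyond the median of -0.34 of the 81 genes, so their sign here follows from that choice.

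Genes that assemble or regulate the chain were taken from lists and tested in the same fit, where 14.8% of all genes were higher and 11.4% lower in WT, 10% and 7.23% in R109K, and 13.8% and 10.7% in KK. Of 16 assembly factors of complex I, 1 was higher and 2 were lower in WT, 1 was higher in R109K, and 1 was higher and 2 were lower in KK. COA1 was the gene that rose in each line (log2 fold changes 0.49, 0.62, and 0.49), and NUBPL, which delivers iron-sulfur clusters to complex I, and TIMMDC1 were those that fell in WT (both -0.72) and KK (-0.96 and -0.53). None of 4 assembly factors of complex II passed in any of the 3 comparisons. Of 6 for complex III, UQCC1 fell in WT (-0.40, adjusted p = 0.0099976) and in KK (-0.45, adjusted p = 0.00496).

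Of 21 tested assembly factors of complex IV, 1 was higher and 2 were lower in WT, 1 and 1 in R109K, and 1 and 2 in KK, against 26.2%, 17.3%, and 24.4% of all genes called in either direction. COX19, a copper-handling factor, was at 32.3, 29.9, and 30.0 CPM in pTRE, 56.2, 52.8, and 50.4 CPM in WT, 45.2, 47.5, and 44.3 CPM in R109K, and 53.9, 63.3, and 53.9 CPM in KK. Every E2F1 library was above every pTRE library, and the log2 fold changes were 0.79, 0.57, and 0.89. COX18, which inserts a mitochondrially encoded subunit into the membrane, fell in all 3 lines (-0.53, -0.57, and -0.60), COA5 fell in WT (-0.62), and COX15, an enzyme of heme A synthesis, fell in KK (-0.55). Of 3 factors for complex V, TMEM70 rose in KK (0.71, adjusted p = 0.00640).

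Of 12 transcriptional regulators of respiratory genes, GABPB1, a subunit of the ETS-family factor GABP, rose in each line. It was at 27.5, 27.7, and 25 CPM in pTRE and between 37.1 and 53.0 CPM in all 9 E2F1 libraries, without overlap. The log2 fold changes were 0.71 in WT, 0.68 in R109K, and 0.83 in KK, and YY1 also rose in KK (0.38, adjusted p = 0.00784). Of 13 genes of the citric acid cycle, MDH2 fell in WT (-0.58, adjusted p = 0.00651) and none passed in R109K or KK. Of 4 chain subunits outside the symbol pattern, ATPIF1, the inhibitor of the ATP synthase, fell in WT (-0.84, adjusted p = 0.00693). Without WT replicate 2, the calls in WT of ATPIF1 (adjusted p = 0.0224), MDH2 (0.0213), COA5 (0.0133), and UQCC1 (0.0340) were lost, and TMEM70 was called higher (0.73, adjusted p = 0.00144).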

How the data were processed

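RNA-seq was performed on 12 samples of U2OS Tet-On lines. According to the methods and the submitters' processing notes, reads were trimmed with Trim Galore 0.4.3 and aligned to hg19 with STAR 2.5.1. The annotation version is not given in the sources used here. The authors deposited raw read counts per gene symbol, and lines for uncounted reads were kept out of library sizes and tests.

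Counts were filtered with filterByExpr, scaled by TMM, and compared with edgeR 4.0.16 (R 4.3.3) by quasi-likelihood tests in 1 model of all 12 samples with a mean per line. p-values were adjusted by Benjamini-Hochberg over 16625 genes, and genes were called at an adjusted p below 0.01, the study's threshold, with 2-fold changes counted apart. Log2 values of single libraries used a prior count of 2. Transcript lengths are medians over GENCODE transcripts on GRCh37. DESeq2 1.42.0, other filters and scalings, a replicate block, and left-out libraries were alternatives. Replicate numbers were not used as pairs in the main model, and whether they mark a shared batch was not resolved. The upper limit given for COX7B2 covers counting error only. SD values are over the 3 replicates of a line, and SE values come from the edgeR fit. Reads on genes ranged from 11500537 to 31040903.

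The genes and lists were chosen with earlier results of these data known. Genes named were fixed core subunits and isoform pairs, up to 3 called genes per complex with the largest changes, and others named after their values were seen. The scripts were tested on simulated data.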

Additional observations from a re-analysis of the deposited data

Results flagged for a closer look

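In all, 2 libraries had a larger share of reads outside annotated genes, a quantity that the comparisons do not use, than the 25 to 28.3% seen in the pTRE libraries. The share was 58.7% in WT replicate 2 and 29.6% in KK replicate 3. In WT replicate 2 the median of the 81 respiratory chain genes was -0.81 on the log2 scale relative to pTRE, and in KK replicate 3 it was -0.21. The part of these reads in the values of the respiratory chain genes was not tested.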

How the results depend on the processing

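The count of respiratory chain genes called in WT against pTRE was 8. It was 4 with a replicate block, 4 in a fit of the 6 samples compared, 21 at an adjusted p below 0.05, and 1 when scaled by the respiratory chain genes, and it ranged from 2 (without any 1 pTRE replicate) to 12 (without WT replicate 3) when single replicates were left out. In R109K the count was 1. It was 2 with scaling by total counts, 2 with DESeq2, 0 with a replicate block, 3 in a fit of 6 samples, 3 at an adjusted p below 0.05, and 0 to 1 without single replicates. In KK the count was 1. It was 2 with scaling by total counts, 4 with DESeq2, 3 in a fit of 6 samples, and 7 at an adjusted p below 0.05. With WT replicate 2 left out of the fit, 3 genes were called in R109K and 5 in KK. The share of all genes called is not given for most of these settings. Whether the changes in count are particular to these genes cannot be told.

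With the same replicate number left out of all 4 lines, an alternative added after seeing the data, the counts in WT, R109K, and KK were 0, 0, and 0 without replicate 1, and 1, 0, and 0 without replicate 3. Without replicate 2 they were 12, 8, and 20. Without replicate 2 the medians were -0.26 for KK against pTRE, 0.057 for R109K against WT, and -0.036 for KK against WT. Scaled by the respiratory chain genes, the medians were 0.021 for WT against pTRE and 0.034 for R109K against WT. For the medians that moved and the counts, the cause was not tested.

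Whether replicate numbers mark a shared batch was not resolved. Over all tested genes, the 18 pairs with the same number had a mean correlation of 0.0436 (from -0.295 to 0.470). The 36 pairs with different numbers had a mean of -0.0235 (from -0.383 to 0.314). These ranges overlap widely, so they cannot decide the question. In the replicate block fit, UQCRC2, ATP5A1, ATP5B, and NDUFB5 remained called in WT. The 8 genes called in WT had adjusted p from 3.25e-04 to 0.00808, with 3 replicates per line and a smallest library of 11500537 reads.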
